A study of Mus musculus with 8 samples.

Results

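The genes described here are 8 members of the chemokine system: the receptor genes Ccrl2, Cx3cr1, Cxcr4, Cxcr6, Ackr3 and Cmklr1, and the chemokine genes Cxcl16 and Cxcl12. They were picked by gene symbol, as the array features annotated to that symbol alone. All 8 were found, with 1 feature each, among 22184 genes. The list was drawn up when the difference between treated and control mice was already known from these arrays. Treatment differences of the 8 genes are therefore given as a description, with intervals and without p-values. Where a gene is said to be called, this states on which side of the threshold of the fit over all genes it lay, and it is not independent evidence of a difference.

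RNA came from CD11b+ cells of the ascites of female C57BL/6 mice carrying ID8, a mouse ovarian cancer cell line injected into the peritoneal cavity at 8 weeks of age. The 4 control mice (replicates 1 to 4) are labelled untreated, while the methods of the study speak of a control IgG. The 4 anti-LIF mice (replicates 5 to 8) received a neutralizing antibody against the cytokine LIF from day 12 for 25 days by the labels, while the text of the study gives a later start. Tumor and mouse strain were shared by both groups, each mouse gave 1 Affymetrix Mouse Gene 2.1 ST array, and the ID8 cells are a single line.

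Chemokine receptors are 7-transmembrane proteins that guide leukocytes along gradients of chemokines. Most signal through Gi proteins, but some members of the family bind ligands without this signaling and instead remove them or hold them at the cell surface. Ackr3 encodes such an atypical receptor, which takes up CXCL12, and Ccrl2 encodes a receptor that binds the chemoattractant chemerin and presents it to CMKLR1, the signaling chemerin receptor. CX3CR1 is the fractalkine receptor of monocytes and macrophages, CXCR4 answers CXCL12, and CXCR6 answers CXCL16, a chemokine that is also made as a membrane-bound scavenger receptor of macrophages. Only part of the list is therefore made of myeloid receptors in the strict sense. CXCR6 is best known from T and NK cells, CXCL12 and ACKR3 from stromal and endothelial cells, and Cxcl16 and Cxcl12 encode ligands.

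Values are log2 intensities after RMA, so a difference of 1 is a doubling. No background level could be set, and probes of different genes differ in brightness, so levels are placed by their percentile among all genes of the same array and are not compared as amounts of transcript. The CD11b gene Itgam was at 8.67 ± 0.36 (SD, n = 4) in control and 8.49 ± 0.22 (SD, n = 4) in anti-LIF mice. Of 7 macrophage genes 4 were called lower in anti-LIF mice (Adgre1, Cd68, Fcgr3 and Mertk), where 11.0% of all genes were called lower. All 7 lay above the level of the median gene. In a fit to such genes alone, 3100 of 11092 were called lower. The mean log2 level of the 7 ran from 8.56 to 9.35 in control and from 8.04 to 8.34 in anti-LIF mice. Tumor and mesothelial genes were bright in both groups, with a mean level over 10 genes of 8.41 to 8.88 in control and 8.69 to 8.94 in anti-LIF mice, although ID8 and mesothelial cells are not CD11b+ cells, and the part of their RNA in the results was not tested. In such bulk RNA, fewer cells of a type and less RNA per cell cannot be told apart. Correlations between arrays of a group ran from 0.960 to 0.974 and between the groups from 0.935 to 0.964, and no pair was a duplicate.

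Against all genes, Cxcl16 and Cx3cr1 gave the strongest signals of the 8. Cxcl16 stood at the 94.3 to 96.8 percentile in control and the 94.8 to 96.8 percentile in anti-LIF arrays. Cx3cr1 stood between the 84.8 and 96.7 percentile in control arrays and between 84.1 and 96.1 in anti-LIF arrays. Both genes thus lay far above the median gene in every mouse. Ccrl2 was at the 82.9 to 93.6 percentile in control and at the 60.8 to 79.5 percentile in anti-LIF mice, and Cxcr4 at 82.3 to 92.5 and 79.3 to 85.9. Cxcl12 (70.2 to 80.3 in control, 72.3 to 89.2 in anti-LIF) and Cmklr1 (60.7 to 75.3 and 65.1 to 72.9) were intermediate. Ackr3 and Cxcr6 lay near the median gene, with Ackr3 between the 49.0 and 57.1 percentile and Cxcr6 between the 44.6 and 57.7 percentile over all 8 mice. No background level was available to tell whether signals at that height were above it. The plot of percentiles shows this order.

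**Figure D1:**
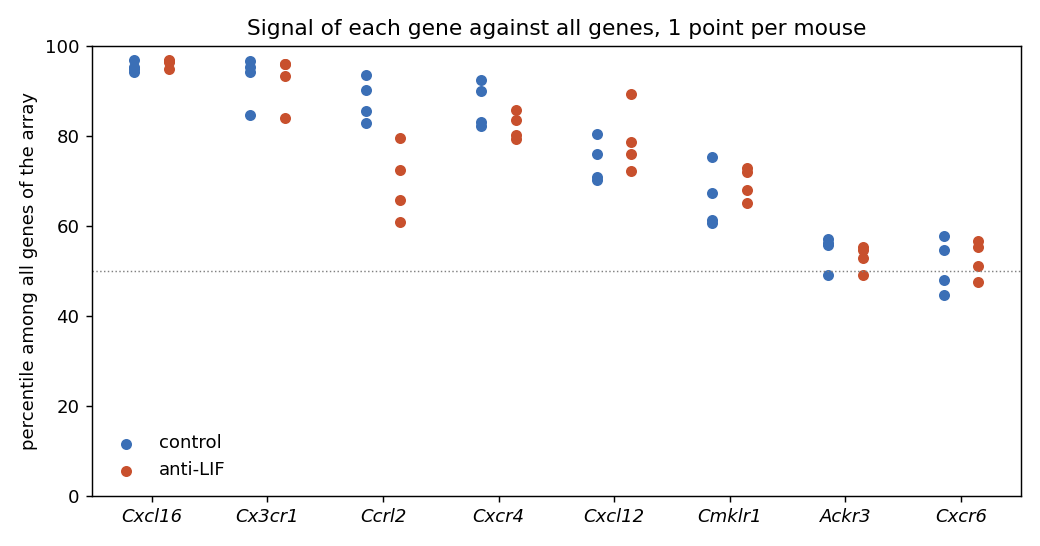
Percentile of each gene among all 22184 genes of the same array (vertical axis), with genes ordered by their control mean and 1 point per mouse (blue, control; orange, anti-LIF; dotted line, the 50th percentile). Ccrl2 is the gene whose groups separate, from 82.9 to 93.6 in control to 60.8 to 79.5 in anti-LIF mice.

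Ccrl2 was lower in CD11b+ cells of every anti-LIF mouse than in any control mouse. Its log2 value was 6.85, 7.15, 8.10 and 7.58 in control replicates 1 to 4, and 5.64, 6.05, 5.28 and 6.53 in anti-LIF replicates 5 to 8. The lowest control and the highest anti-LIF mouse were 0.32 apart on the log2 scale, less than the SD within either group. The means were 7.42 ± 0.54 (SD, n = 4) and 5.88 ± 0.54 (SD, n = 4). This is a log2 difference of -1.55 (standard error 0.30, 95% interval -2.20 to -0.90), or 2.92-fold lower. Of all genes, 0.284% had a more negative difference. Of the 7 macrophage genes 4 were called lower too, as given above, while Itgam (-0.17), Csf1r (-0.33) and Lyz2 (-0.09) were not called. The 6 classical monocyte genes moved in both directions. F13a1 (-2.76), Chil3 (-2.67) and Vcan (-1.02) were called lower and Ly6c2 (1.73) higher, where 11.0% of all genes were called lower and 5.79% higher. Ccr2 (-0.34) and Fn1 (0.24) were not called. The mean log2 level of the 6 was 7.52 to 8.18 in control and 6.66 to 7.24 in anti-LIF mice. The part of the macrophage and monocyte genes in the Ccrl2 difference was not tested.

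In the limma fit over all genes at the study's threshold, an adjusted p under 0.1, 1 of the 8 genes was called lower (Ccrl2) and none higher, where 11.0% of all genes were called lower and 5.79% higher (16.8% in either direction). By separation of the groups, 1 of 8 was lower without overlap and none higher, against 11.9% and 6.53% of all genes. The list was made with this contrast known, so nothing is read from these counts. The median log2 difference was -0.07 over the 8 genes and 0.03 over all genes. Ccrl2 was called lower in each alternative setting that was run, those that left out a mouse included, with log2 differences from -1.77 to -1.32.

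The bases before the Ccrl2 start are shown because this gene had the largest difference of the 8. The table of RefSeq promoter sequences used here was matched by 7 of them, and the promoter of Cxcl16 was not analysed here. The stretch covers the 250 bases before the outermost annotated start of Ccrl2, chr9:111057519-111057768 on the minus strand of GRCm38.p6, 5′ to 3′, and capitals mark a match to the κB consensus of NF-κB factors.
Ccrl2: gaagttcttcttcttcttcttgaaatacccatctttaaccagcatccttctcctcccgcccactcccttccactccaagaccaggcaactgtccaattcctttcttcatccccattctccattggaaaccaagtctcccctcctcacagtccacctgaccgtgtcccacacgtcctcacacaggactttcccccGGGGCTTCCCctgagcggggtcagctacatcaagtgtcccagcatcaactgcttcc
The match lies 56 to 47 bases before the start. Searched on both strands, the κB consensus was found in the 250 bases of 1 of the 7 genes and in 7.03% of 27025 promoters of that length. The STAT palindrome TTCNNNGAA, of the factor family through which LIF signals, was in none of the 7 and in 7.14% of all. The κB search was added after the sequence had been seen. These matches describe letters in a window and say nothing of binding.

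Cxcr4, the signaling receptor of CXCL12, had the next largest difference of the 8 genes after Ccrl2. Its log2 value was 7.48, 6.94, 7.94 and 6.84 in control replicates 1 to 4 and 6.97, 6.50, 6.75 and 6.56 in anti-LIF replicates 5 to 8. Anti-LIF replicate 5 lay above control replicates 2 and 4, and the other 3 anti-LIF mice were below every control. The means were 7.30 ± 0.51 (SD, n = 4) and 6.70 ± 0.21 (SD, n = 4), a log2 difference of -0.60 (standard error 0.23, 95% interval -1.10 to -0.11). Cxcr4 was not called at the threshold of 0.1. It was called with arrays centred on their medians, among genes above the median level, with the trend and robust settings, and without control replicate 4. It was not called under the other alternatives without pairs, such as a second quantile normalization (log2 difference -0.42) or array weights (-0.49). Of the 24 possible pairings of the mice, 8 called it. Control replicate 3 carried much of its size, since the difference was -0.39 without that mouse. The same 4 macrophage genes and, in both directions, the same monocyte genes moved beside it, and their part in the Cxcr4 values was not tested.

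Cx3cr1, whose product keeps monocytes and macrophages in contact with fractalkine, varied more within the groups than between them. It was at 8.60, 8.10, 8.39 and 7.05 in control replicates 1 to 4. In anti-LIF replicates 5 to 8 it was at 7.76, 6.85, 8.21 and 8.26. A single low mouse in each group, control replicate 4 and anti-LIF replicate 6, set most of this spread, and the pooled SD of 0.67 was larger than that of 99.1% of genes. The log2 difference was -0.26 (standard error 0.36), and its 95% interval of -1.05 to 0.53 reaches to 2.07-fold lower. Without anti-LIF replicate 6 the difference was 0.04, and with any other mouse left out it stayed negative, down to -0.59 without control replicate 4.

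Cmklr1, the signaling chemerin receptor, did not follow Ccrl2. It was at 5.77, 5.41, 6.47 and 5.28 in control replicates 1 to 4 and at 5.59, 5.78, 6.03 and 6.04 in anti-LIF replicates 5 to 8. All 4 anti-LIF values fell inside the control range. The log2 difference was 0.13 (standard error 0.23, 95% interval -0.38 to 0.64). It was 0.38 without control replicate 3, the highest mouse, and -0.02 without control replicate 4, the lowest. Whether the difference of Cmklr1 itself departs from that of Ccrl2 was not tested. The other chemerin receptor gene, Gpr1, was dim, at 3.16 ± 0.11 (SD, n = 4) in control and 3.38 ± 0.21 (SD, n = 4) in anti-LIF mice, and the chemerin gene Rarres2 was not analysed here.

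**Figure D2:**
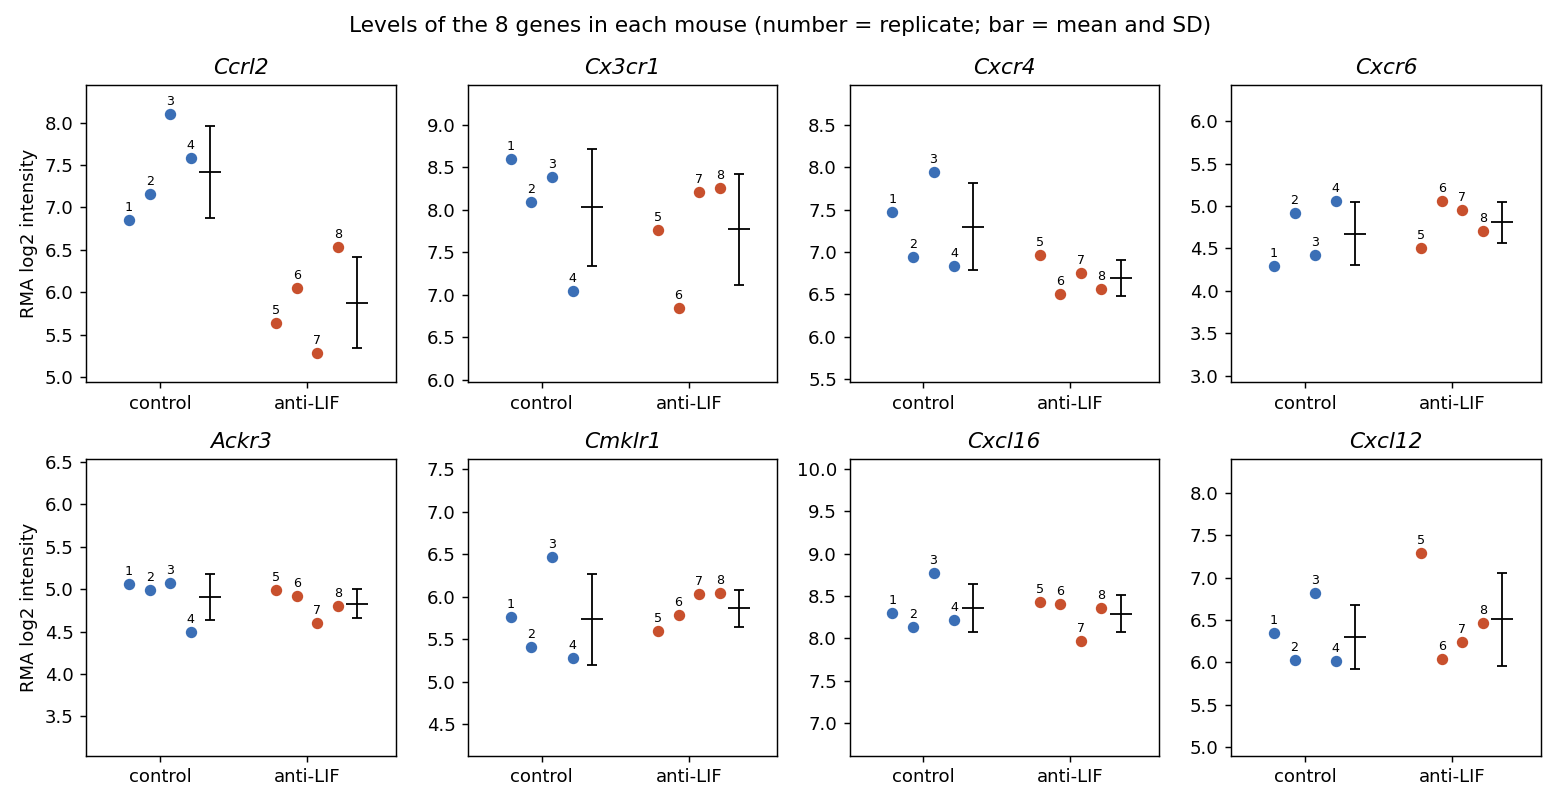
RMA log2 intensity of the 8 genes (vertical axis, the same span of 3.5 in each panel) in each of the 4 control (blue) and 4 anti-LIF mice (orange), with the replicate number above the point and the group mean with SD beside it. The groups of Ccrl2 do not overlap, those of Cxcr4 overlap through anti-LIF replicate 5, and the other 6 genes overlap broadly.

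The ligand and receptor pair Cxcl16 and Cxcr6 showed close values in both groups. Cxcl16 was at 8.30, 8.13, 8.77 and 8.22 in control replicates 1 to 4 and at 8.43, 8.41, 7.96 and 8.36 in anti-LIF replicates 5 to 8. Its log2 difference was -0.07 (standard error 0.17) with a 95% interval of -0.43 to 0.30, so changes beyond about 1.35-fold down or 1.23-fold up lay outside the interval. The sign turned to 0.18 when the arrays were quantile normalized again. Cxcr6 was at 4.30, 4.92, 4.42 and 5.06 in control replicates 1 to 4 and at 4.51, 5.06, 4.95 and 4.71 in anti-LIF replicates 5 to 8. Its log2 difference was 0.13 (standard error 0.19, 95% interval -0.29 to 0.56). The mean log2 level of 11 T and NK cell genes ran from 3.70 to 3.98 in control and from 4.01 to 4.54 in anti-LIF mice. Of the 11 genes 2 (Cd8a and Nkg7) were called higher, where 5.79% of all genes were. The median level of the 11 was 3.91, below that of all genes (4.61). The part of T and NK cell RNA in the Cxcr6 signal was not tested.

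Cxcl12 and its scavenger Ackr3 likewise showed no separation of the groups. Cxcl12 was at 6.34, 6.03, 6.82 and 6.02 in control replicates 1 to 4 and at 7.28, 6.04, 6.24 and 6.46 in anti-LIF replicates 5 to 8. Anti-LIF replicate 5 held the highest value of all 8 mice. The log2 difference was 0.20 (standard error 0.26, 95% interval -0.37 to 0.78), and without that mouse it was -0.06. The mean log2 level of 10 fibroblast and endothelial genes ran from 5.09 to 5.54 in control and from 5.48 to 5.65 in anti-LIF mice. Of the 10, 2 were called higher (Pecam1 and Kdr) and 1 lower (Cdh5), where 5.79% of all genes were called higher and 11.0% lower. The part of such cells in the Cxcl12 values was not tested. Ackr3 was at 5.06, 4.99, 5.08 and 4.50 in control replicates 1 to 4 and at 4.98, 4.92, 4.60 and 4.81 in anti-LIF replicates 5 to 8, a log2 difference of -0.08 (standard error 0.16, 95% interval -0.43 to 0.27). Along the CXCL12 axis, the receptor gene Cxcr4 had the estimate furthest from 0. The 95% intervals of Cxcr4, Cxcl12 and Ackr3 overlapped, and differences between these genes were not tested.

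**Figure D3:**
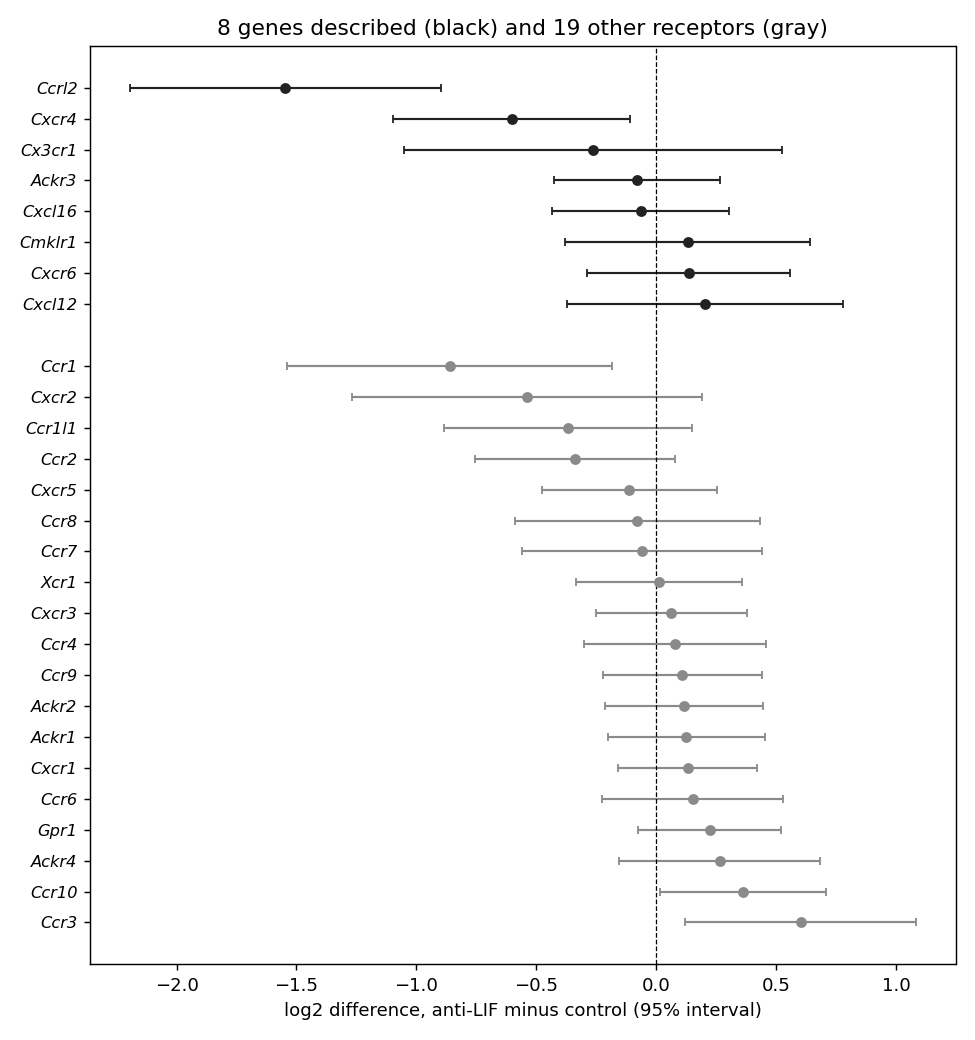
Log2 difference, anti-LIF minus control, with its 95% interval from the limma fit (horizontal axis) for the 8 genes (black) and 19 other chemoattractant receptor genes (gray), each block sorted by size. Ccrl2 (-1.55) is furthest from 0, followed by Ccr1 (-0.86) and Cxcr4 (-0.60).

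Several of the 8 genes were highest or lowest in the same mouse. Control replicate 3 was the highest control for 6 of the 8 genes (Ccrl2, Cxcr4, Ackr3, Cmklr1, Cxcl16 and Cxcl12) and the lowest for none. Of all genes, it was the highest control for 31.7% and the lowest for 27.4%. Its array had the widest spread of the controls, with an upper quartile over genes of 6.45 against 6.27 to 6.36. The 8 genes had mean levels above the median gene, and the part of that spread in their pattern was not tested. Control replicate 4 was the lowest control for 5 of the 8 (Cx3cr1, Cxcr4, Ackr3, Cmklr1 and Cxcl12), against 25.1% of all genes. Control replicate 3 also had the highest mean of the 7 macrophage genes (9.35) and control replicate 4 the lowest among controls (8.56), and the part of these genes in the pattern was not tested. Cxcr6 ran the other way, highest in control replicate 4. In anti-LIF mice no replicate was the highest for more than 4 of the 8. After the group means were taken out, Cxcr4 and Cxcl12 had the highest correlation of the 28 pairs (Pearson's r = 0.79 over 8 arrays) and Cxcr4 and Cxcr6 the lowest (r = -0.82). These values share the same 8 libraries and are a description.

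**Figure D4:**
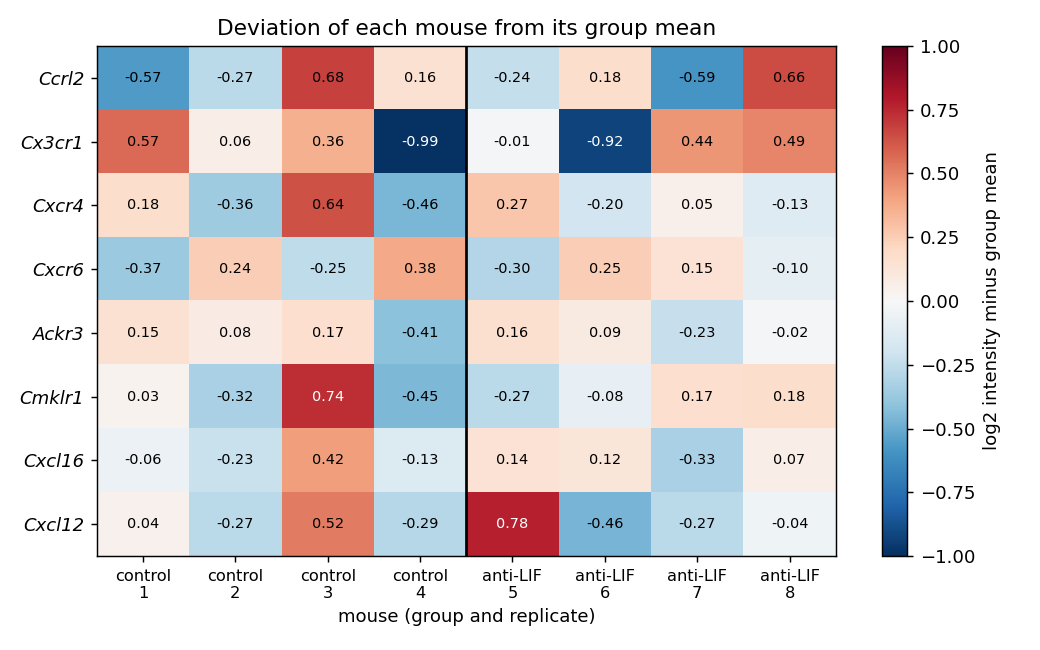
Deviation of each mouse from the mean of its group (log2 intensity, color scale and printed value) for the 8 genes in rows and the 8 mice in columns, control left of the line. Control replicate 3 is above its group mean in 7 of 8 genes, and Cx3cr1 is lowest in control replicate 4 (-0.99) and anti-LIF replicate 6 (-0.92).

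The rest of the family gives the setting. Like the 8 genes, this list and the other gene lists of this report were chosen with earlier results of these data known. Their adjusted p-values and calls describe the fit over all genes and are not independent evidence. Of 20 further chemoattractant receptor genes, 19 were measured, and limma called none of them higher or lower, against 16.8% of all genes called. Their median level was 3.81, below that of all genes (4.61), so this share is not matched to their level. In a second fit, to genes above the median level, 3100 of 11092 were called lower and 1122 higher. That fit held 4 of the 19 receptors and called 1 of them lower (Ccr1). In the fit over all genes, 3 of the 19 were at an unadjusted p under 0.05 from limma, Ccr1 lower and Ccr3 and Ccr10 higher. The share of all genes at that unadjusted level was not computed, so nothing is read from this count. The median log2 difference of the 19 was 0.08. Of the 19, 4 (Ccr1, Ccr2, Ccr7 and Cxcr2) lay above the level of the median gene, against all 8 of the genes described here. Ccr1, a receptor of inflammatory CC chemokines on monocytes and neutrophils, had a log2 difference of -0.86 (standard error 0.31, adjusted p = 0.1002 from limma, just above the threshold, and 0.0206 to 0.18 over the 24 possible pairings of the mice). It was at 6.45 to 7.78 in control and 5.35 to 6.57 in anti-LIF mice, and it was called lower under 5 of the 15 alternatives without pairs. Ccr2, the monocyte receptor of CCL2, had -0.34 (standard error 0.19, adjusted p = 0.28 from limma). Ccr3, an eosinophil receptor, had 0.60 (standard error 0.22, adjusted p = 0.11 from limma), at a control level of 3.19 that lay between the 18.0 and 24.7 percentile of genes. Its groups did not overlap but were only 0.09 apart on the log2 scale. Cxcr2 had -0.54 (adjusted p = 0.33 from limma) and Ccr1l1 -0.37 (adjusted p = 0.35).

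Of 6 measured genes of partner ligands, 1 was called lower (Mif), 1 higher (Hmgb1) and 4 were not called. Of all genes, 11.0% were called lower and 5.79% higher, and nothing is read from counts this small. MIF is an alternative ligand of CXCR4, and its gene went from 12.61 ± 0.16 (SD, n = 4) to 11.71 ± 0.11 (SD, n = 4), a log2 difference of -0.89 (standard error 0.13, adjusted p = 0.0030 from limma). HMGB1, a nuclear protein that joins CXCL12 when released, had a gene difference of 0.45 (standard error 0.13, adjusted p = 0.043). The fractalkine gene Cx3cl1 was at -0.30 (standard error 0.18, adjusted p = 0.31 from limma), Ccl5 at 0.39 (adjusted p = 0.44), Cxcl11, whose product is also taken up by ACKR3, at 0.40 (adjusted p = 0.13), and Adm at -0.12 (adjusted p = 0.60).

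Of 8 proteases that shed or cleave chemokines, 3 fell and none rose, where 11.0% of all genes were called lower and 5.79% higher. They were Mmp9 (log2 difference -1.52, standard error 0.24, adjusted p = 0.0044 from limma), Dpp4 (-0.80, standard error 0.24, adjusted p = 0.056), which trims the start of CXCL12, and Mmp14 (-0.50, standard error 0.16, adjusted p = 0.065). The sheddase genes of CXCL16 and fractalkine were at log2 differences of 0.11 for Adam10 (adjusted p = 0.62 from limma) and 0.27 for Adam17 (adjusted p = 0.21), and neither passed the test. Nor did Ctsg (0.22), Elane (0.16) and Mmp2 (-0.12), and the median log2 difference of the 8 was -0.01. Mmp9 alone of the 8 separated the groups without overlap, against 11.9% of all genes downward and 6.53% upward. The groups of Dpp4 and Mmp14 overlapped. Dpp4 was also at only the 28.3 to 50.2 percentile in anti-LIF arrays.

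Of 13 measured genes of receptor coupling and desensitization, 4 fell, none rose and 9 did not pass the test, against the same shares of all genes (11.0% lower and 5.79% higher), with a median log2 difference of -0.22. Rgs1, which encodes a GTPase-activating protein that dampens chemokine receptor signals, went from 8.14 ± 0.58 (SD, n = 4) to 7.02 ± 0.22 (SD, n = 4), a log2 difference of -1.13 (standard error 0.25, adjusted p = 0.017 from limma). The related Rgs18 had -0.86 (adjusted p = 0.057), Grk3, a receptor kinase gene, -0.65 (adjusted p = 0.050), and the Gi subunit gene Gnai3 -0.33 (adjusted p = 0.087). The Gi subunit gene Gnai2 and the arrestin gene Arrb2 had log2 differences of -0.08 and -0.33 and did not pass the test, nor did Grk6 (0.40), Grk5 (0.37) and Rgs16 (-0.33). All 4 of the lower genes separated the groups without overlap, as did Grk5 and Grk6 upward, against 11.9% of all genes without overlap downward and 6.53% upward. The gap on the log2 scale was only 0.002 for Rgs18, 0.02 for Grk3 and 0.03 for Grk5, less than the SD within either group. Rgs18 was also dim, at the 7.8 to 17.9 percentile in anti-LIF arrays.

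Genes were ranked by how closely they tracked each of the 8 over the arrays, among 18547 named genes and without a test. The r given are the highest of that many values over only 8 arrays, so they are not read as co-expression. Over all 8 arrays, where the difference between groups enters, the closest to Ccrl2 were Plk2 (Pearson's r = 0.99), Hccs (0.99), Rab7b (0.99), Gak (0.99) and Lsm12 (0.99), all with lower means in anti-LIF mice. After the group means were taken out they were Bbc3 (0.99), Gak (0.97), Lsm12 (0.97), Hccs (0.97) and Sgms2 (0.97), so 3 genes stood in both lists. In the same measure without group means, the closest genes were Cdk10, Ube2o and Peg13 for Cx3cr1 (r from 0.96 to 0.99), Psg21, Arhgap4 and Gpr61 for Cxcr4 (0.97 to 0.99) and Myot, Nsd2 and Zfp280d for Cxcr6 (0.97 to 0.98). They were Gata4, Tagap1 and Cox6a1 for Ackr3 (0.97 to 0.98), Rgs1, Dclre1b and Rabif for Cmklr1 (0.97 to 0.98), Mrps11, Stmnd1 and Mospd4 for Cxcl16 (0.98 to 0.99) and Pold4, Hsf2bp and Zik1 for Cxcl12 (0.97 to 0.99). Over all 8 arrays with the group means left in, they were Msl3l2, Slc9a3r2 and Cryzl2 for Cx3cr1, Twist1, Jtb and Tmem107 for Cxcr4, Krtap5-3, Lemd3 and Myot for Cxcr6, and Tagap1, Slc5a6 and Cldn3 for Ackr3. For Cmklr1 they were Sh3bp1, Ctdsp1 and Olfr1361, for Cxcl16 Rasgrp1, Tnfaip8l1 and Rcor1, and for Cxcl12 Hsf2bp, Gsdma and Chmp4c, with r from 0.93 to 0.98 over these 21.

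The receptor genes Ccrl2, Cx3cr1 and Cxcr6 lie on chromosome 9 (RefSeq, GRCm38.p6), where RefSeq also places Ccr1, Ccr2 and Ccr3. Cxcr6 is followed by Xcr1 and Ccr1 in the order of protein-coding genes, and Cx3cr1 by Ccr8. Ccrl2 stands apart from them, between Ltf, the lactoferrin gene of neutrophil granules, and Lrrfip2. Ltf had a log2 difference of -0.08 at a mean level of 4.31, and Lrrfip2 one of -0.58, which was called lower.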

How the data were processed

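The authors normalized Affymetrix Mouse Gene 2.1 ST arrays by RMA (by Progenika), and the deposited values are log2 intensities for 41345 features. R 3.1.2 is listed in the submitters' processing notes. The program used for RMA is not given in the sources used here. Averaging the 23525 features with 1 symbol gave 22184 genes, with no filter on low values, and the 1816 with several symbols and 16004 without a symbol were not used. Groups were compared with limma 3.58.1 (lmFit, eBayes) in R 4.3.3, with Benjamini-Hochberg adjustment over all genes and a threshold of 0.1. The study's methods speak of paired samples but the labels name no pairs, so the fit had none. The scripts were tested on simulated data.

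The members and the 15 other gene lists were chosen with earlier results of these data known. The rule for named genes took all members, each gene of another list past the threshold with up to 4 of the largest differences that were not, and for each member the 3 genes (5 for Ccrl2) with the highest correlation over arrays and the 3 with the highest correlation of deviations from group means. The text departs from it in that 5 genes are given for the deviations of Ccrl2, genes that did not pass are mostly left out of the cell type marker lists, and Adam10, Ccr2, Gnai2 and Gpr1 were named for their roles after their values were seen. Alternatives were another feature summary, a level filter, 2 scalings, other variance settings, array weights, a threshold of 0.05, all 24 ways to pair the mice, and each array left out. The number of arrays limits the precision. Python 3.11.15 with matplotlib 3.10.9 made the plots.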

Additional observations from a re-analysis of the deposited data

Results flagged for a closer look

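In 2 of the 16 groups of 4 mice formed by the 8 genes, a mouse lay far from the other 3 for the size of the group. Ackr3 was at 4.50 in control replicate 4, with 0.85 of the control range between it and the next mouse. Cxcl16 was at 7.96 in anti-LIF replicate 7, with 0.84 of the range below the next mouse. Chance marks about 1 in 20 such groups. The log2 difference of Ackr3 was -0.22 without that control, and that of Cxcl16 was 0.04 without that anti-LIF mouse. Neither gene was called with or without the mouse.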

How the results depend on the processing

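The list was chosen with this contrast known, so its calls are a description. Ccrl2 lay past the threshold and was lower under all 15 alternatives without pairs, between -1.77 and -1.32 on the log2 scale when single mice were left out, and in all 24 pairings. The number of the 8 genes called was 1, and 2 (with Cxcr4) among genes above the median level, with arrays centred on their medians, with trend and robust settings and in 8 of the 24 pairings with a replicate block. Without single mice it was 1 to 2. Of the 19 other receptors 0 were called, but 1 with the brightest feature of each symbol, among genes above the median level or with centred arrays (Ccr1, lower), and 1 with trend and robust settings or array weights (Ccr3, higher). Without single mice it was 0 to 2, and with pairs 0 to 3. The pairs themselves are unknown, as control mice are numbered 1 to 4 and anti-LIF mice 5 to 8. No paired analysis was possible because these numbers are not shared, and the pairings show only a range. As deposited, the arrays differed by group. The median over genes was 4.55 to 4.60 in control and 4.64 to 4.65 in anti-LIF arrays. The upper quartile was 6.27 to 6.45 in control and 6.17 to 6.22 in anti-LIF arrays. The part of these offsets in the differences of single genes was not tested. Scaling moved the split of all calls. Higher genes were 34.4% of calls, 21.6% with centred arrays (3215 lower, 884 higher) and 47.7% with quantile normalization (1454 lower, 1326 higher). The cause of these shifts was not tested. Among genes that were not called, the sign of Cx3cr1, Cmklr1, Cxcl16 and Cxcl12 turned in at least 1 alternative. Intervals of all 8 genes rest on 4 mice a group, and no background level was available for signals near the median gene.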

Other observations

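Marker genes of the cells that a CD11b+ fraction of ascites can hold moved in both directions, and their part in the receptor values was not tested. Of all genes, 11.0% were called lower and 5.79% higher. Among 7 macrophage genes the lower ones were Cd68 (log2 difference -1.41), Fcgr3 (-1.19), Mertk (-0.90) and Adgre1 (-0.72). Among 6 classical monocyte genes F13a1 (-2.76), Chil3 (-2.67) and Vcan (-1.02) were lower and Ly6c2 (1.73) was higher. Among 7 nonclassical monocyte genes, a population known for high Cx3cr1, Ace (-1.46) and Nr4a1 (-1.30) were lower while Itgal (1.42), Treml4 (0.57) and Cd300e (0.47) were higher. None of 8 resident peritoneal macrophage genes was called, with Timd4 at 0.65 (adjusted p = 0.11 from limma).

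Of 8 neutrophil genes S100a8 (-1.32) and Mmp8 (-1.25) were lower, where 11.0% of all genes were called lower and 5.79% higher. Lymphoid and other lists held only higher calls, Cd8a (0.76) and Nkg7 (0.85) of 11 T and NK cell genes, Jchain (3.20) of 6 B and plasma cell genes, Zbtb46 (0.62) of 6 dendritic cell genes and Cpa3 (0.46) of 7 mast cell genes. Of 10 tumor and mesothelial genes Muc16 (1.88), Upk1b (0.78) and Lrrn4 (0.74) were higher and Krt18 (-0.69) and Krt19 (-0.40) lower. Of 10 fibroblast and endothelial genes Pecam1 (0.76) and Kdr (0.60) were higher and Cdh5 (-0.57) was lower.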
